A study of Mus musculus with 9 samples.

Results

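The genes described are 7 matrix metalloproteinases (*Mmp2*, *Mmp3*, *Mmp8*, *Mmp9*, *Mmp12*, *Mmp13* and *Mmp14*) and 3 of their tissue inhibitors (*Timp1*, *Timp2* and *Timp3*) in mouse lung grafts. Every probe whose accession belongs to 1 of these 10 genes was taken, with no regard to its signal, which gave 15 of the 56601 probes tested and 10 of the 22909 genes that could be named. All 15 probes entered the tests, since no filter on low values was set, and 11 of them were well above background on all 9 arrays.

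Left lungs of C57BL/10 donors were transplanted into C57BL/6 recipients, strains that differ in minor histocompatibility antigens, and the grafts were sorted by histology into OB (obliterative bronchiolitis, the scarring closure of small airways) and non-OB. Sham mice had the thoracotomy alone, so that the OB and non-OB lungs share the transplantation and the donor strain, and the sham lungs were not transplanted. All mice were male and 8 to 12 weeks old, and left lungs were taken at day 21 from 3 individual mice in each group, 1 array per mouse. Both strains served as sham mice: sham 1 is drawn as a C57BL/10 lung in the published clustering and the other sham lungs as C57BL/6, although their labels name the donor and recipient strains of the grafts. The OB and non-OB mice were those whose histology was typical of the group. Per the study each lung was divided between histology and RNA, so that the specimen measured was not the one graded. It held all cell types together, so that fewer cells of a type and less RNA per cell cannot be told apart.

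Matrix metalloproteinases are zinc-dependent enzymes that are made as inactive precursors and, once activated, cut collagen, elastin and other proteins of the extracellular matrix as well as cytokines and cell surface proteins. The TIMPs bind their active sites and block them. In the lung these enzymes are known for their part in emphysema, fibrosis and airway remodelling, and macrophages, neutrophils, fibroblasts and epithelium each make a different set of them. The arrays measure transcripts only, so that neither the activation of a precursor nor the binding of an inhibitor is seen.

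Each array was a 1-colour Agilent array, and the values given are log2 of the authors' scaled signal, in which 1 unit is a 2-fold difference. The level of a gene is compared between arrays for the same probe and not with that of another gene. A summed marker signal adds up the signals of a list within an array before log2 is taken, so that its bright probes count most, and it too is compared between arrays only. On these arrays 58.6% to 69.6% of the spots were well above background and none was saturated. The arrays lay on 4 slides. OB 1 and non-OB 1 were on slide 1 together with sham 1 and sham 2. OB 2 shared slide 2 with non-OB 3, OB 3 shared slide 3 with non-OB 2, and sham 3 was on slide 4. Lung markers were present in all groups, with summed epithelial signals of 19.4 to 20.2 on the log2 scale. The 4 cardiac muscle markers, by contrast, had a summed signal of 10.6 to 12.6 in the 6 grafts and of 15.4 to 16.8 in the sham lungs. A gene was called when its adjusted p from limma was below 0.05 and, against sham, its change was at least 2-fold. With 3 arrays against 3, an exact permutation test of a single gene cannot go below p = 0.1, and with 6 against 3 it cannot go below 0.0119.

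*Mmp13*, *Mmp12*, *Mmp3* and *Mmp8* lie in this order in a cluster of 10 metalloproteinase genes on chromosome 9, and the other members are spread over 6 chromosomes. The RefSeq promoter table for GRCm38.p6 held a start for 8 of the 10 genes, and none for *Mmp2* and *Mmp9*. In the 250 bases before each start, the AP-1 motif TGANTCA was searched on both strands because AP-1, a pair of Fos and Jun family proteins, is a known regulator of metalloproteinase genes. The stretches with a match, 1 each in *Mmp13*, *Mmp12* and *Mmp3*, are shown 5′ to 3′ with the match in capitals. They are those of *Mmp13* at chr9:7272264-7272513, of *Mmp12* at chr9:7347124-7347373 and of *Mmp3* at chr9:7445572-7445821, all on the plus strand.
Mmp13: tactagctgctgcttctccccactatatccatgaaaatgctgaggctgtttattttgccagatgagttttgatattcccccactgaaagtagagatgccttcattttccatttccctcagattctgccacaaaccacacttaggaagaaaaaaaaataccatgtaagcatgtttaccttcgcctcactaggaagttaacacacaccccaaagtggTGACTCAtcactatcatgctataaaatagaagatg
Mmp12: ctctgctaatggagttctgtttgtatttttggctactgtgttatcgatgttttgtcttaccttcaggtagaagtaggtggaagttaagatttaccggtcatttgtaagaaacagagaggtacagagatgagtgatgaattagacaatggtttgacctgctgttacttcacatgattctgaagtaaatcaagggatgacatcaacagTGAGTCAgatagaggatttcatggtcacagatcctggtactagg
Mmp3: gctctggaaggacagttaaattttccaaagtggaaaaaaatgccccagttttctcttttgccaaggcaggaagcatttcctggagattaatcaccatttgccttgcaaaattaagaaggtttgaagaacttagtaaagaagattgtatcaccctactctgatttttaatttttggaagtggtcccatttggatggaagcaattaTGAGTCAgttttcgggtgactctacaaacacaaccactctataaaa
The match ended 29 bases before the start in *Mmp13*, 38 in *Mmp12* and 40 in *Mmp3*. Of all 32851 promoters of this length, 6.75% held the motif. The other listed start of *Mmp12*, with its window at chr9:7344147-7344396, lies upstream of the one shown and held no match. The starts of *Mmp8*, *Mmp14*, *Timp1*, *Timp2* and *Timp3* held none either. TATAAA, searched in the same way, stood in the windows of *Mmp3* and *Mmp13* and in 12.4% of all promoters. Of the 3 genes with a match, *Mmp12* and *Mmp13* were called against sham and *Mmp3* was not, as described next.

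*Mmp12* encodes macrophage elastase, which cuts elastin. Its brightest probe read 11.95, 9.85 and 9.91 on the arrays of OB 1, OB 2 and OB 3. It read 8.71, 9.22 and 10.41 in non-OB 1 to 3 and 7.16, 6.57 and 5.73 in sham 1 to 3. Every graft lay above every sham lung, OB 1 was the highest of the 9 arrays, and the OB and non-OB groups overlapped, because non-OB 3 was above OB 2 and OB 3. *Mmp12* rose in OB against sham by 4.08 on the log2 scale (SE 0.68, 95% interval 2.51 to 5.65), or 16.9-fold, with an adjusted p of 0.0141 from limma. In non-OB the difference from sham was 2.96 (SE 0.68, 1.39 to 4.53), or 7.78-fold, with an adjusted p of 0.0694 from limma, and was not called. The difference between OB and non-OB was 1.12 (SE 0.68), and its 95% interval ran from -0.45 to 2.69. Without OB 1 this difference was 0.43 (SE 0.57).

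The other 2 probes of *Mmp12* were not well above background in any sham lung and give bounds. Their level in OB was at least 14.2-fold that in sham for the brighter of these probes and at least 8.70-fold for the dimmer, with adjusted p-values of 0.00895 and 0.0261 from limma. In non-OB the bounds were 5.42-fold and 3.91-fold at the least (adjusted p = 0.051 and 0.127 from limma), and neither was called. Such a bound sets the mean of the bright group against the lowest signal still well above background on each sham array. On all 3 probes OB 1 was the highest array and non-OB 3 the next.

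The spread of *Mmp12* within groups was wide, 1.2 in OB, 0.87 in non-OB and 0.72 in sham (SD, n = 3 each). Its rise in OB was no longer called without sham 2 (4.12, adjusted p = 0.059 from limma) or without sham 3 (3.7, adjusted p = 0.0534). Without OB 1, the brightest array, it was 3.39 and still called. In non-OB the same gene was called once OB 1 was left out (adjusted p = 0.0373). Within slide 1, the only slide with all 3 groups, OB was 5.08 and non-OB 1.85 above the mean of both sham lungs. With the slide as a block the difference was 4.03 in OB (adjusted p = 0.132 from limma) and 2.91 in non-OB (adjusted p = 0.273), neither called. Of all 56601 probes that fit called 4 higher and 0 lower in OB against sham, and 0 in non-OB against sham. It could therefore hardly call any single gene.

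*Mmp13*, a collagenase that cuts fibrillar collagen, was not well above background in any sham lung and well above it in all 6 grafts. It read 6.65, 5.14 and 5.21 in OB 1 to 3 and 5.56, 5.85 and 6.47 in non-OB 1 to 3. The sham signals were 4.03, 3.5 and 3.96. The graft groups overlapped each other, and no graft reached down to the sham range. *Mmp13* was therefore at least 3.06-fold higher in OB than in sham (adjusted p = 0.0484 from limma) and at least 3.75-fold higher in non-OB (adjusted p = 0.0464 from limma). OB and non-OB differed by -0.29 (SE 0.44, 95% interval -1.29 to 0.71).

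The calls of *Mmp13* were narrow ones. In OB against sham the call was lost when any 1 of the 9 arrays was left out, with adjusted p-values from 0.0539 to 0.17, and in non-OB it was lost without any array other than OB 1, with adjusted p-values from 0.0551 to 0.18. Within slide 1, OB 1 and non-OB 1 were well above background and sham 1 and sham 2 were not. With the slide as a block the adjusted p from limma was 0.183 in OB and 0.202 in non-OB, in the same fit that called hardly any probe.

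**Figure D1:**
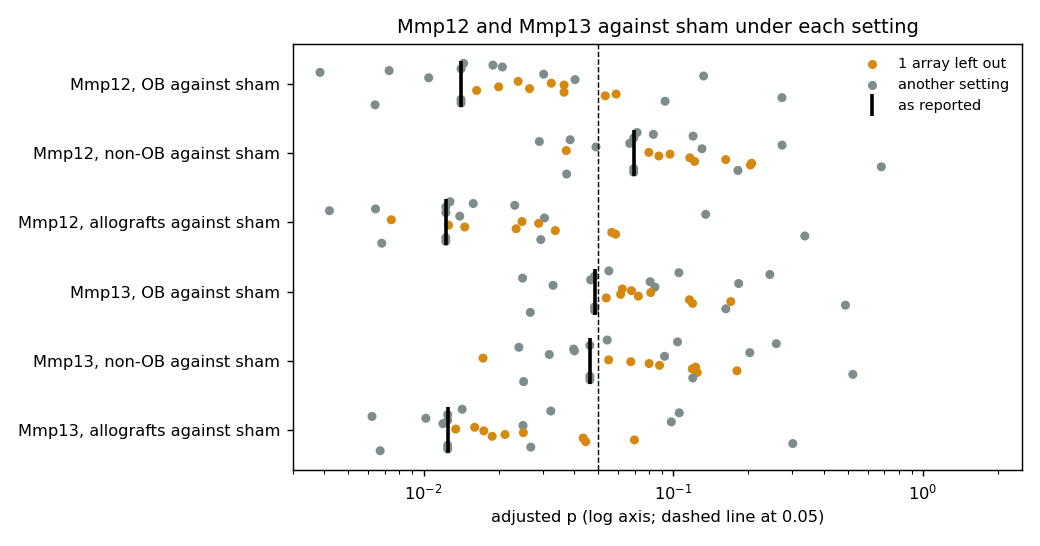
Adjusted p of *Mmp12* and *Mmp13* against sham (horizontal log axis), for the 3 comparisons with sham, as reported (black bar), with 1 array left out (orange) and under other settings (grey). The dashed line is the threshold of 0.05, which the points of *Mmp13* in OB and non-OB straddle and those of *Mmp12* in OB pass in most settings.

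Over the 6 allografts against the 3 sham lungs, a comparison that uses the same arrays again, *Mmp12* rose by 3.52 (SE 0.64, adjusted p = 0.0123 from limma) and *Mmp13* was at least 3.39-fold higher (adjusted p = 0.0125). For both genes the exact two-sided permutation test over the 9 arrays gave 0.0119, the smallest p it can give. Only genes whose grafts all lie on 1 side of the sham lungs can reach it. Of the named genes, 12.8% had all grafts above sham and 16.1% all below. *Mmp12* lost this call without sham 2 (adjusted p = 0.0567) or sham 3 (0.0588), and *Mmp13* without sham 2 (0.0699).

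**Figure D2:**
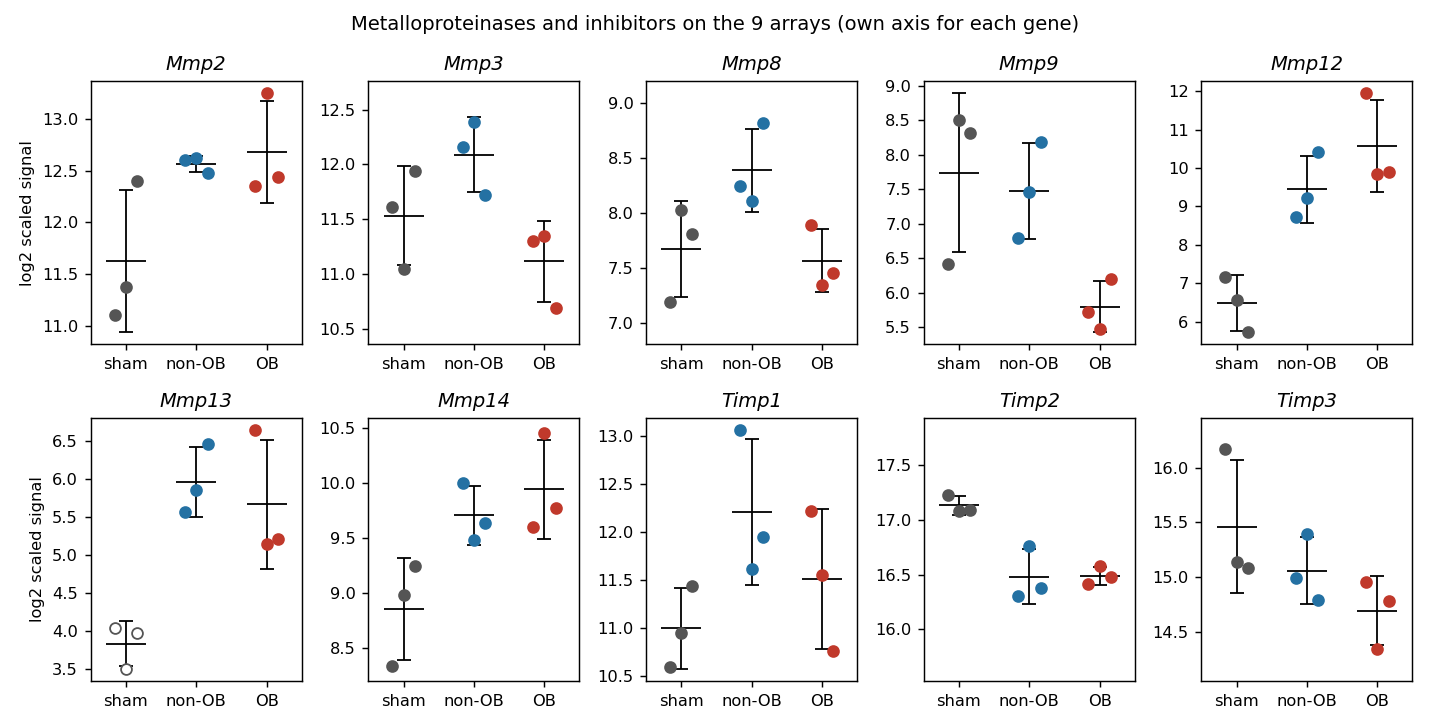
Log2 scaled signal of each gene (vertical axis, 1 axis per gene) in sham, non-OB and OB lungs, 1 point per array, with the group mean and SD (n = 3) in black. Open points are arrays on which the probe was not well above background. *Mmp12*, *Mmp13* and *Mmp14* lie above every sham lung in all 6 grafts, and *Timp2* lies below.

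In counts, 2 of the 10 genes, *Mmp12* and *Mmp13*, were called higher in OB than in sham and none lower, against 3.82% called higher and 3.73% called lower among all named genes (1 probe per gene). In non-OB against sham *Mmp13* alone was called, where 2.52% of the genes were called higher and 1.13% lower. The allografts gave *Mmp12* and *Mmp13*, with 4.28% called higher and 3.93% lower among all genes. The median change of the 10 genes against sham was 0.20 in OB and 0.79 in non-OB, beside 0.08 and 0.13 over all probes. Because OB and non-OB were both set against the same 3 sham lungs, the 2 sets of changes are not independent.

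**Figure D3:**
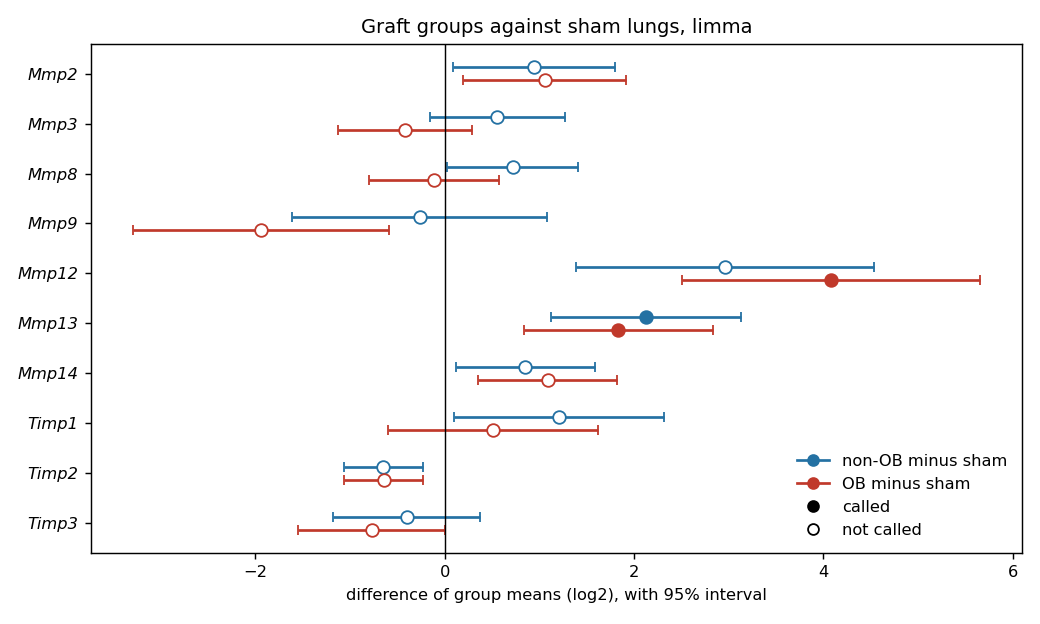
Difference of each graft group from sham on the log2 scale (horizontal axis) with its 95% interval from limma, for the 10 genes. Filled points were called, which holds for *Mmp12* and *Mmp13* in OB and for *Mmp13* in non-OB, and the *Mmp13* differences rest on sham signals that were not well above background.

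*Mmp2* and *Mmp14* work together, since the membrane-bound enzyme encoded by *Mmp14* activates the precursor of gelatinase A, the product of *Mmp2*. *Mmp14* read 9.6, 10.46 and 9.77 in OB, 10, 9.48 and 9.63 in non-OB and 8.34, 8.98 and 9.24 in sham. All 6 grafts were above all 3 sham lungs, and the exact permutation test over the 9 arrays gave 0.0119 here as well. The difference from sham was 1.09 (SE 0.32, adjusted p = 0.0952) in OB, 0.85 (SE 0.32, adjusted p = 0.235) in non-OB and 0.97 (SE 0.27, adjusted p = 0.0577) over the allografts, all from limma and none called. *Mmp14* was called in OB when only the probes well above background in a group were tested (adjusted p = 0.0488).

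*Mmp2* read 12.35, 13.25 and 12.44 in OB, 12.61, 12.62 and 12.48 in non-OB and 11.1, 11.37 and 12.4 in sham. Sham 3 lay just above OB 1, and OB 2 stood alone at the top. The difference from sham was 1.06 (SE 0.37, adjusted p = 0.162) in OB and 0.94 (SE 0.37, adjusted p = 0.258) in non-OB by limma. Over the allografts it was 1 (SE 0.3, adjusted p = 0.0812), and it was called there without sham 3 (1.39, adjusted p = 0.0262). OB 2 was the highest array for *Mmp14* as well, and its summed signal of the 10 fibroblast markers, 18.2, was the highest of the 9 arrays, whose range was 16.6 to 18.2. The part of that in either gene was not tested. None of the fibroblast markers was called higher in OB than in sham, and *Pdgfra* and *Npnt* were called lower.

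*Mmp9* encodes gelatinase B, which neutrophils store in granules and macrophages make as well. Its brighter probe read 5.73, 5.47 and 6.2 in OB, 6.79, 7.45 and 8.18 in non-OB and 6.41, 8.5 and 8.31 in sham. The 3 OB grafts were the lowest of the 9 arrays, and sham 1 lay near them while sham 2 and sham 3 were about 2 units higher. OB was 1.94 below sham (SE 0.59, 95% interval -3.29 to -0.59, adjusted p = 0.104 from limma), and this was not called. Without sham 1, the C57BL/10 lung, the difference was -2.6 with an adjusted p of 0.0306, which was called. The non-OB lungs stood at -0.26 from sham (SE 0.59, 95% interval -1.61 to 1.08).

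A second *Mmp9* probe gave 4.8, 4.05 and 4.69 in OB, of which only OB 1 was well above background, 5.75, 6.62 and 7.72 in non-OB and 5.73, 7.64 and 7.68 in sham. It followed the first probe, with OB at the bottom and sham 1 the lowest sham lung. Its fitted difference from sham in OB was -2.5 (SE 0.64, adjusted p = 0.064 from limma), which rests on an OB level that only 1 of 3 arrays measured well above background. With the mean of both probes in place of the brighter one, *Mmp9* was called lower in OB than in sham (-2.22, adjusted p = 0.0469), and this value has the same limit.

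*Mmp8*, the collagenase of neutrophil granules, read 7.89, 7.35 and 7.46 in OB, 8.24, 8.1 and 8.82 in non-OB and 7.19, 8.03 and 7.8 in sham. The non-OB lungs were the 3 highest arrays, and OB and sham overlapped. Non-OB differed from sham by 0.72 (SE 0.3, adjusted p = 0.273) and OB by -0.11 (SE 0.3, adjusted p = 0.858), by limma.

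*Mmp3* encodes stromelysin, which cuts many matrix proteins and activates other metalloproteinases. It read 11.3, 11.35 and 10.69 in OB, 12.16, 12.39 and 11.72 in non-OB and 11.61, 11.05 and 11.94 in sham. Sham overlapped both graft groups. The difference from sham was -0.42 in OB (SE 0.31, adjusted p = 0.458) and 0.56 in non-OB (SE 0.31, adjusted p = 0.368), by limma.

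Between OB and non-OB no gene was called at all (0.00% of the named genes higher or lower). At an unadjusted p below 0.05, by limma, 0.694% of the named genes were higher and 1.55% lower in OB, and *Mmp3*, *Mmp8* and *Mmp9* were among the lower ones, with unadjusted p-values of 0.0132, 0.0243 and 0.0209. These 3 genes were also the members whose OB and non-OB arrays did not overlap, all lower in OB, where 3.59% of all named genes had every OB array below every non-OB array and 1.43% every one above. The differences were -0.97 for *Mmp3* (SE 0.31, 95% interval -1.68 to -0.26), -0.82 for *Mmp8* (SE 0.3, -1.51 to -0.14) and -1.67 for *Mmp9* (SE 0.59, -3.02 to -0.33). Adjusted over all probes, each had a p of 1 from limma to 3 digits, and each gave 0.1 in the exact two-sided permutation test, which is the smallest p possible here.

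Within the 3 slides that held an OB and a non-OB array, OB was the lower of the pair in each for these genes. Arrays that do not overlap fix this sign in advance, so that it adds nothing to the lack of overlap. For *Mmp9* the differences were -1.06, -2.72 and -1.25 on slides 1 to 3. They were -0.35, -1.47 and -0.65 for *Mmp8* and -0.86, -0.37 and -1.70 for *Mmp3*. With the slide as a block in limma the differences stayed the same, and the unadjusted p was 0.0284 for *Mmp3*, 0.0577 for *Mmp8* and 0.0519 for *Mmp9*, so that of these 3 genes *Mmp3* alone was below 0.05. Each adjusted p was again 1 to 3 digits.

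For the 7 other genes the OB and non-OB arrays overlapped, and the 95% intervals give the size of difference that the arrays leave possible. The interval was -0.74 to 0.97 for *Mmp2*, -0.50 to 0.97 for *Mmp14* and -0.41 to 0.42 for *Timp2*. It reached from -1.81 to 0.41 for *Timp1* and from -1.14 to 0.41 for *Timp3*. For *Mmp12* the slide pairs did not agree in sign, at 3.24, -0.56 and 0.69 on slides 1 to 3, and neither did those of *Mmp13*, at 1.09, -1.33 and -0.64. *Timp1* was lower in the OB array of each pair, by -0.85, -0.39 and -0.85, and so was *Timp3*, by -0.03, -0.45 and -0.61. With the slide as a block *Timp1* stood at -0.7 (SE 0.19) with an unadjusted p of 0.0139 from limma, against 0.185 without the block, and its adjusted p was 1 to 3 digits in both fits. For *Timp3* the unadjusted p with the block was 0.302.

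**Figure D4:**
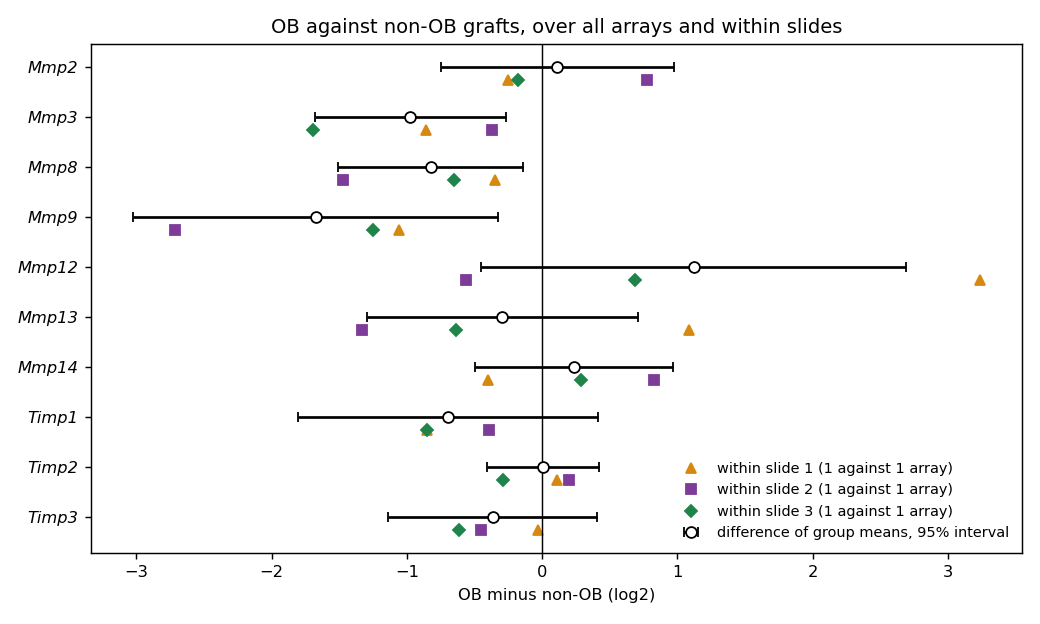
OB minus non-OB on the log2 scale (horizontal axis) for the 10 genes, as the difference of group means with its 95% interval (open circles, n = 3 each, slide not in the fit) and within each slide that held 1 array of both groups (coloured marks). Only the intervals of *Mmp3*, *Mmp8* and *Mmp9* lie below 0. All 3 slides fall on the same side for them, which follows from arrays that do not overlap.

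Neutrophil markers were read beside *Mmp8* and *Mmp9*, whose products neutrophils carry. Of the 10 markers none was called between OB and non-OB, 3 had every OB array below every non-OB array and 1 had every OB array above. *S100a8* and *S100a9*, the calprotectin genes, stood -2.38 and -2.7 lower in OB, the chemokine receptor *Cxcr2* -1.78 and *Retnlg* -1.97, while the granule protein lactoferrin, *Ltf*, stood 2.48 higher, all with an adjusted p of 1 to 3 digits from limma. *S100a9* read 12.97, 10.5 and 12.32 in OB, 13.95, 14.38 and 15.55 in non-OB and 13.2, 15.36 and 14.56 in sham, so that sham 1 was the lowest sham lung here as for *Mmp9*. The summed signal of the 10 markers was 16.1 to 16.5 in OB, 16.5 to 17.5 in non-OB and 16.5 to 16.7 in sham, and *Ngp* was well above background on none of the 9 arrays. Granule protease genes of neutrophils and mast cells, 7 in all, gave no call in any comparison. Between OB and non-OB, 6 of them were on the lower side and 1 on the higher, with a median of -0.24. The 1 on the higher side was *Elane*, neutrophil elastase, at 0.04. Several of the 7 were near background in the grafts, which limits the reading of their signs. *Ctsg* was well above background on no graft array and *Prtn3* on 1 non-OB array alone. *Mcpt4* and *Cpa3* were so on 1 OB and 2 non-OB arrays each. The part of neutrophils in the *Mmp8* and *Mmp9* values was not tested.

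**Figure D5:**
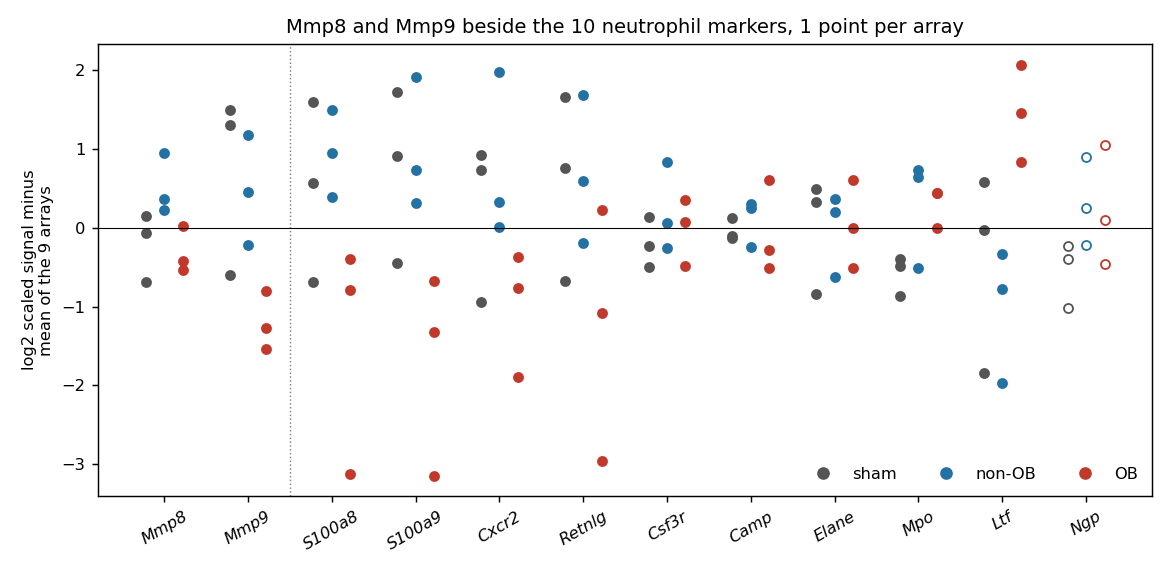
Log2 scaled signal minus the mean of the 9 arrays (vertical axis) for *Mmp8*, *Mmp9* and 10 neutrophil markers, 1 point per array, in sham, non-OB and OB. Open points mark groups in which no array was well above background. *S100a8*, *S100a9* and *Cxcr2* have every OB array below every non-OB array, like *Mmp8* and *Mmp9*, whereas *Ltf* has every OB array above and the other 6 markers overlap.

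Macrophage markers were read beside *Mmp12*. Of 12 markers, 8 were called higher in OB than in sham and 7 in non-OB, and none lower. *Gpnmb*, a marker of lipid-laden and tissue-remodelling macrophages, rose by 4 in OB (adjusted p = 0.00168 from limma) and by 3.11 in non-OB (adjusted p = 0.00665). *Trem2* rose by 3.9 and 3.16, and *C1qb*, a complement gene of resident macrophages, by 3.38 and 2.82. *Cd68* rose by 2.29 and 1.78. *Marco* and *Mrc1*, which alveolar macrophages express, differed by 0.19 and 0.92 in OB and were not called. The summed signal of the 12 genes was 17.6 to 18.4 in OB, 17.1 to 18.1 in non-OB and 16 to 16.5 in sham, and its part in the rise of *Mmp12* was not tested. OB 1, the highest array for *Mmp12*, had the highest sum, 18.4, whereas non-OB 3, the next for *Mmp12*, had a sum of 17.5, below those of OB 2, OB 3 and non-OB 2. Among the other cell types, all 5 measured T cell markers and 1 of 5 monocyte markers (*Fcgr4*) were called higher in OB than in sham, 4 of 5 smooth muscle markers, 3 of 4 cardiac muscle markers and 1 of 6 epithelial markers (*Hopx*) were called lower, and none of 4 B cell or 5 myofibroblast markers was called.

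Among the inhibitors, *Timp2*, which is made throughout the lung and also helps *Mmp14* to activate the *Mmp2* precursor, was measured by 2 probes. Its brighter probe read 16.41, 16.57 and 16.47 in OB, 16.3, 16.76 and 16.37 in non-OB and 17.23, 17.08 and 17.09 in sham. All 6 grafts lay below all 3 sham lungs. Over the allografts *Timp2* fell by 0.65 (SE 0.14), or 1.56-fold, with an adjusted p of 0.0268 from limma and an exact permutation p of 0.0119, so that it passed the p threshold and not the 2-fold one. With 1 array left out the adjusted p ran from 0.0155 to 0.11, and it was above 0.05 without OB 3 (0.0602), non-OB 1 (0.053), sham 1 (0.11), sham 2 (0.097) or sham 3 (0.0848). Each graft group by itself differed by a similar amount, -0.64 in OB (adjusted p = 0.0849) and -0.65 in non-OB (adjusted p = 0.119). The second *Timp2* probe was at -0.34 over the allografts (SE 0.19, adjusted p = 0.274), with overlap between the groups.

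*Timp3* encodes the inhibitor that stays bound to the matrix. It read 14.96, 14.34 and 14.78 in OB, 14.99, 15.39 and 14.79 in non-OB and 16.16, 15.14 and 15.08 in sham. All OB lungs were below all sham lungs, and sham 1 stood about 1 unit above the other sham lungs. The difference of OB from sham was -0.77 (SE 0.34, adjusted p = 0.258 from limma), and the second probe gave -0.59 (SE 0.31, adjusted p = 0.35). Endothelial markers, 4 of 5 called lower in OB, ran the same way, and their part in *Timp3* was not tested.

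*Timp1*, the inducible and secreted inhibitor, read 12.21, 11.56 and 10.76 in OB, 13.06, 11.61 and 11.95 in non-OB and 10.6, 10.95 and 11.44 in sham. Every non-OB lung exceeded every sham lung, and OB overlapped both. The difference from sham was 0.51 (SE 0.48, adjusted p = 0.565) in OB and 1.21 (SE 0.48, adjusted p = 0.26) in non-OB, neither called by limma. Within slide 1, where the sham lungs were 10.8 on average, OB was 1.44 and non-OB 2.29 higher.

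Arrays of a group that do not overlap those of sham were common among the members and among all genes. In OB against sham, *Mmp12*, *Mmp13* and *Mmp14* lay wholly above and *Mmp9*, *Timp2* and *Timp3* wholly below, where 19.9% of the named genes lay above and 23.4% below. In non-OB against sham, 6 of the 10 genes lay wholly above (*Mmp2*, *Mmp8*, *Mmp12*, *Mmp13*, *Mmp14* and *Timp1*) and *Timp2* below, where the shares of all named genes were 15.5% and 19.0%. Over the allografts 3 genes lay above and 1 below, beside 12.8% and 16.1%.

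Beyond these 10 genes, 15 of the 16 other metalloproteinases had a probe. *Mmp25*, a membrane-anchored enzyme of leukocytes, read 6.48, 6.48 and 6.11 in OB, 7.4, 6.12 and 6.79 in non-OB and 2.17, 2.01 and 2.25 in sham, where all 3 signals were too close to background to count as well above it. Its signal exceeded that of sham at least 4.96-fold in OB and at least 6.59-fold in non-OB (adjusted p = 0.00121 and 0.00163 from limma). *Mmp7*, matrilysin of epithelium, was called over the allografts alone, at least 1.58-fold higher (adjusted p = 0.0212). The bound is below 2-fold because the graft signals, 4.04 to 5.65, were close to the sham limits. Those limits, the lowest signals still well above background on each sham array, were 3.96 to 4.17. Only 3 of the 6 graft arrays were well above background for *Mmp7*. The other 13 were called in no comparison, among them *Mmp19* (0.93 in OB, adjusted p = 0.369), *Mmp11* (-0.39), *Mmp15* (-0.62), *Mmp17* (-0.05), *Mmp23* (0.64) and *Mmp28* (-0.32). Of these 13, *Mmp1a*, *Mmp10*, *Mmp20*, *Mmp21* and *Mmp24* were not well above background on any array, *Mmp1b* was so on 1 sham array and *Mmp16* on 2.

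Of 10 further inhibitors, none was called against sham in OB or in non-OB. Over the allografts *Reck*, a membrane-anchored inhibitor of metalloproteinases, fell by 1.05 (adjusted p = 0.0264) and *Slpi*, an inhibitor of leukocyte elastase, rose by 1.15 (adjusted p = 0.0208). *Timp4* stood at -1.09 in OB (adjusted p = 0.256) and -1.09 in non-OB.

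Other proteases were counted in the same way. Of 9 cathepsins, 6 were called higher in OB than in sham, 2 in non-OB and none lower. They were led by *Ctss*, an elastin-cutting cathepsin of antigen-presenting cells, which rose by 2.6 in OB and 2.22 in non-OB (adjusted p = 0.00168 and 0.00481), followed by *Ctsw* (2.1 in OB), the collagen-cutting *Ctsk* (2.09 in OB), *Ctsd* (1.36), *Ctsz* (1.36) and *Ctsb* (1.09). The median over the 9 was 1.36 in OB and 1.04 in non-OB. Of 9 ADAM proteases *Adam8* alone was called, 1.95 higher in OB and 1.62 in non-OB (adjusted p = 0.00641 and 0.0207), and none of 13 ADAMTS proteases, of 9 genes of plasminogen and other activating proteases or of 15 matrix substrates was called in any comparison.

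Of 10 cytokines known to regulate metalloproteinases, *Ifng* alone was called, 3.34 higher in OB and 2.67 in non-OB (adjusted p = 0.00307 and 0.0109 from limma). Its part in the values of any member was not tested. Of 10 AP-1 factors, which bind the motif shown above, *Batf3*, *Batf* and *Batf2*, AP-1 members of immune cells, rose in OB by 2.72, 1.58 and 1.43. *Jun* fell by 1.49 in OB (adjusted p = 0.0128), and *Fos* fell by 1.85 over the allografts (adjusted p = 0.0441). *Fosl1* was well above background on none of the 9 arrays, and *Fosl2* differed by -0.03 in OB.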

How the data were processed

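Total RNA of a specimen of the left lung of 3 OB, 3 non-OB and 3 sham mice was measured on 1 array each, and groups were taken from the sample labels. The authors labelled cRNA with Cy3, scanned the arrays and extracted background-subtracted signals with Agilent Feature Extraction 12.0.3.1, per the labels, and the deposited scanner tables give an intensity per spot. A deposited value table holds the same intensities after multiplication by 1 factor per array, which brings the array's mean, trimmed by 2% at each end, to 2500. That table has array medians of 72.5 to 124. The scaled signals recomputed here equalled it within a relative difference of 4.99e-10.

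From the intensities, control spots and spots marked as outliers were left out, log2 values of repeated spots were averaged, and 56601 probes were fitted by lmFit and eBayes of limma 3.58.1 (R 4.3.3) with 1 mean per group, or 2 means for allografts against sham. Benjamini-Hochberg adjustment covered all probes. A call needed an adjusted p below 0.05 and, against sham, a 2-fold change. The difference between OB and non-OB needed no fold. The p-values measure the spread between the arrays of single mice, 3 to a group, and this number limits the precision. The main fit has no slide term, so that this spread holds slide differences as well. With the slide as a random block in OB against sham, the estimated correlation within a slide was 0.458. Single genes were also tested by exact permutation. Probes were named through RefSeq accessions for GRCm38.p6, which matched 32991 probes. A gene with several probes is represented by the one with the highest mean signal, and the others are given beside it. The probes were designed on a different build, and the only coordinates given are those of the RefSeq promoters.

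The members, the 22 gene lists and the tests were chosen with earlier results of these data known. The genes named are the 10 members, the other metalloproteinases, *Timp4*, up to 6 called genes of each other list, and the marker genes given beside a member. *Mmp27* and *Trac* were not matched to a probe. Naming the uncalled *Timp4*, *Elane* and AP-1 genes and the uncalled markers serves the comparison with the members. The code was tested on simulated data. Other tools were Python 3.11.15 with scipy 1.17.1 and pandas 2.3.3. Replicate numbers did not pair the samples (same-number correlations of deviations from the group means from -0.451 to 0.444). Each result was recomputed with a changed scaling, background correction, filter, spread model, block, sample set, threshold or choice of probe, and with the methods' t-test.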

Additional observations from a re-analysis of the deposited data

Results flagged for a closer look

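*Mmp2* in OB 2 stood apart from the other grafts. Its signal of 13.25 was the highest of the 6 grafts, whose others lay between 12.35 and 12.62, and the gap to the nearest graft was 0.704 of the whole range over the 6 grafts. This is above Dixon's 95% critical value for 6 samples, which chance passes in about 1 group of 20. The highest and the lowest graft of all 10 genes were checked in this way, so that a pass somewhere among them is more likely than that. *Mmp14* (10.46) and the summed fibroblast markers (18.2) were also highest in OB 2. Without OB 2 *Mmp2* differed from sham in OB by 0.77 (adjusted p = 0.335 from limma), and it was called neither with nor without it.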

How the results depend on the processing

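Over 25 alternatives, no called change of a member turned its direction. Of 1000 results, 1 for each gene, comparison and alternative, 936 kept their side of the threshold, 45 lost a call and 19 gained one. Most of the 936 are uncalled genes that stayed uncalled, since only *Mmp12* and *Mmp13* had calls to lose. In OB against sham *Mmp12* was called in 20 and *Mmp13* in 8 of the 25 alternatives. In non-OB *Mmp13* was called in 10 of 25, and over the allografts each gene in 21 of 25.

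Of 10 members, 2 were called in OB against sham. This became 1 with scaling to the 75th percentile, with quantile normalization, with normexp and quantile normalization, with only the groups compared and with a replicate block, and 0 with the slide as a block, with sham 1 alone as the sham group and with the methods' t-test after adjustment. It became 3 with only probes well above background and with the unadjusted t-test, both adding *Mmp14*, and with the mean of all probes of a gene, which added *Mmp9*. Leaving out 1 array gave 0 to 2. In non-OB against sham the count of 1 became 0 with each of the same 3 scalings, the slide as a block, a replicate block, sham 1 alone and the adjusted t-test, and 2 with only probes well above background, a trended and robust spread, a random slide block, the unadjusted t-test and the mean of all probes of a gene. Leaving out 1 array gave 0 to 2. Between OB and non-OB the count was 0 throughout, also with each array left out (0 to 0), except that the unadjusted t-test of the methods gave 3, *Mmp3*, *Mmp8* and *Mmp9*. Over the allografts the count of 2 became 0 with the slide as a block and with sham 1 alone, 3 with quantile normalization, which added *Mmp2*, and without the fold threshold, which added *Timp2*, 4 with a random slide block, and 0 to 2 with 1 array left out. Of all 56601 probes, the slide block called 4 higher and 0 lower in OB against sham, and 0 in non-OB against sham. The adjusted t-test also called 0 probes in non-OB against sham. In these comparisons a member could hardly keep a call, whatever its own values. That does not hold for 2 other fits in which *Mmp12* and *Mmp13* lost their calls. Over the allografts the slide block called 792 probes higher and 366 lower, with adjusted p-values of 0.135 and 0.0982 from limma for these genes. In OB against sham the adjusted t-test called 633 higher and 461 lower, and gave them 0.0927 and 0.162. The causes of the changed counts were not tested, apart from the fewer arrays in some fits.

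Same-numbered samples shared only a number, and the replicate block called *Mmp12* alone in OB against sham, none in non-OB against sham and 2 over the allografts. Quantile normalization moved the median change of all probes in non-OB against sham from 0.13 to -0.02 and no call between OB and non-OB.

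With normexp, whose offset of 50 shrinks dim signals, the fitted difference of *Mmp13* from sham was 0.41 in OB (adjusted p = 0.244 from limma), 0.43 in non-OB (adjusted p = 0.259) and 0.42 over the allografts (adjusted p = 0.106). In the sham lungs *Mmp13* and 2 *Mmp12* probes were not well above background, so that only bounds of their changes can be had.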

Other observations

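Over the 6 grafts, the genes whose log2 signal ran most like that of 3 members were looked up among the 14891 genes well above background on all 6. This is a description with no test, over 6 arrays of 2 groups that shared 3 slides. For *Mmp12* they were *1600010M07Rik* (Pearson correlation 0.987), *Myadml2*, *Asb11*, *Gm31588* and *2310015A10Rik* (0.951). For *Timp1* they were *Ppp2r2d* (0.995), *Aplf*, *Klrb1a*, *Dlx6os2* and *Spsb1* (0.985). For *Timp3* they were *Necap1* (0.993), *Cnih1*, *Thbd*, *Tppp3* and *2810025M15Rik* (0.984). Several of these moved little over the grafts, *Necap1* by 0.21 and *Aplf* by 0.25 on the log2 scale, and *Thbd*, thrombomodulin of endothelium, by 1.54.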
